A study of Mus musculus with 617 samples.

Results

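Nodal is a secreted ligand of the TGF-beta family that signals through activin receptors and a membrane co-receptor, Cripto, to SMAD2 and SMAD3. The SMADs enter the nucleus and act with partners such as FOXH1, and their targets include Nodal itself and its secreted inhibitors Lefty1 and Lefty2. In the mouse embryo the pathway is known for keeping the epiblast pluripotent after implantation and for patterning its axes, and Activin A, which binds the same receptors, is used to grow epiblast-like stem cells. The 8 genes followed here were chosen by symbol: Nodal (the ligand), Tdgf1 (Cripto, the co-receptor), Furin and Pcsk6 (proprotein convertases that cleave the Nodal precursor), Foxh1 (the SMAD partner), Lefty1 and Lefty2 (the inhibitors) and Smad7 (an inhibitory SMAD). All 8 were found, each as 1 row among the 43628 gene rows of each of 4 tables.

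The data were FPKM values, which are scaled per length and per library, from 617 single mouse cells in 13 groups. A male and a female embryonic stem cell line, each from a cross of a CAST/EiJ male with a C57BL/6J female, were grown with 2i and LIF (60 female and 51 male cells) or with serum and LIF (68 and 52 cells). The same lines were also grown with Activin A and FGF2, named Epi in the labels (79 and 63 cells, plus a separate female Epi culture of 7 passages with 41 cells). They were further differentiated with retinoic acid and the smoothened agonist SAG towards motor neurons (39 and 35 cells), which per the labels also gives interneurons. Embryo cells were labelled E3.5 inner cell mass (ICM, 23 cells) and E4.5 epiblast (23 cells), from the same kind of cross and with no sex given, and E5.5 (20 female and 63 male cells) from C57BL/6J parents. Each line is 1 line, so line and sex cannot be told apart, and the E5.5 cells differ from all other groups in their cross. Cells of 1 culture are not replicates: a state had n = 2 cultures, and each embryo stage was treated as 1 sample.

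Cells held a median of 8122 (E3.5) to 10839.5 (female E5.5) genes that reached 1 FPKM. The median FPKM sum per cell ran from 511794 (E4.5) to 1478620 (male motor neuron cultures), so the groups were not on 1 scale. Several labels were mixed when set against marker genes. Of the 23 cells labelled E4.5 epiblast, 16 had 10 FPKM or more of Cdx2, a trophectoderm regulator, as did 10 of the 23 labelled E3.5 ICM. The trophoblast marker list had a summed level of 6.34 to 3215 FPKM in E4.5 cells (median 1262, with 7 of 8 markers at a mean of 1 FPKM or more and none at 0 in every cell) and of 19.8 to 1924 in E3.5 cells (median 178.7, 8 of 8). The E5.5 cells carried visceral endoderm transcripts: the list's summed level was 190.4 to 9329 FPKM in females (9 of 10 markers at 1 FPKM or more) and 16.9 to 2726 in males (7 of 10). Every E5.5 cell also held epiblast markers. The lowest general pluripotency sum was 782.6 FPKM in females and 843.9 in males, and the lowest primed epiblast sum 175.6 and 359.7. In the female motor neuron culture 11 of 39 cells had 10 FPKM or more of Pou5f1, a pluripotency factor, against 0 of 35 in the male culture. In the first female Epi culture the naive marker Zfp42 averaged 72.5 FPKM, against 0.07 in the male Epi and 0.12 in the 7-passage culture. Some values in the comparisons are also given without the cells with Cdx2, Apoa1 or Pou5f1, and no result was computed without the cells with Zfp42.

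Nodal (ENSMUSG00000037171, chr10:61417972-61425338, plus strand) was present in nearly every stem cell. Its lowest, median and highest values were 4.28, 35.8 and 114.9 FPKM in female 2i cells and 3.31, 36.2 and 104.1 FPKM in male 2i cells. In serum they were 0.13, 44.6 and 183.999 FPKM (female) and 1.41, 39.3 and 204 FPKM (male). The 4 cultures overlapped almost fully, with means of 39.8 ± 22.1, 39.3 ± 21.6, 53.9 ± 42.96 and 50.5 ± 41.97 FPKM (SD over cells). The Epi cultures did not share 1 level: Nodal averaged 74.2 ± 61.5 FPKM in the first female culture, 155.8 ± 117.98 in the 7-passage culture and 39.6 ± 67.8 in the male culture. In the male culture 14 of 63 cells were at 0 and 45 of 63 reached 1 FPKM (71.4%, exact 95% interval 58.7 to 82.1%), against 78 of 79 and 40 of 41 in the female ones. These and later intervals cover counting of cells only.

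Nodal was listed at 0 in every cell labelled E3.5 (0 of 23, interval 0 to 14.8%), and 4 of 23 E4.5 cells reached 1 FPKM (17.4%, 4.95 to 38.8%). The 4 cells held 1.45, 9.52, 30.5 and 32.2 FPKM. The titles of all 4 open with the number 9, as those of 7 of the 23 cells do, and the labels do not say what that number is. The 3 higher ones had under 10 FPKM of Cdx2, and the cell at 1.45 FPKM had 65.1. By E5.5, 18 of 20 female and 60 of 63 male cells were at 1 FPKM or more, with means of 30.4 ± 28.99 and 37.6 ± 33.8 FPKM. In motor neuron cultures the median was 0 in both lines, but the female mean was 29.3 ± 112.2 FPKM and the male mean 0.92 ± 3.27. The female mean came from few cells: it was 98.8 FPKM in the 11 cells with Pou5f1 and 2.02 in the other 28.

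**Figure D1:**
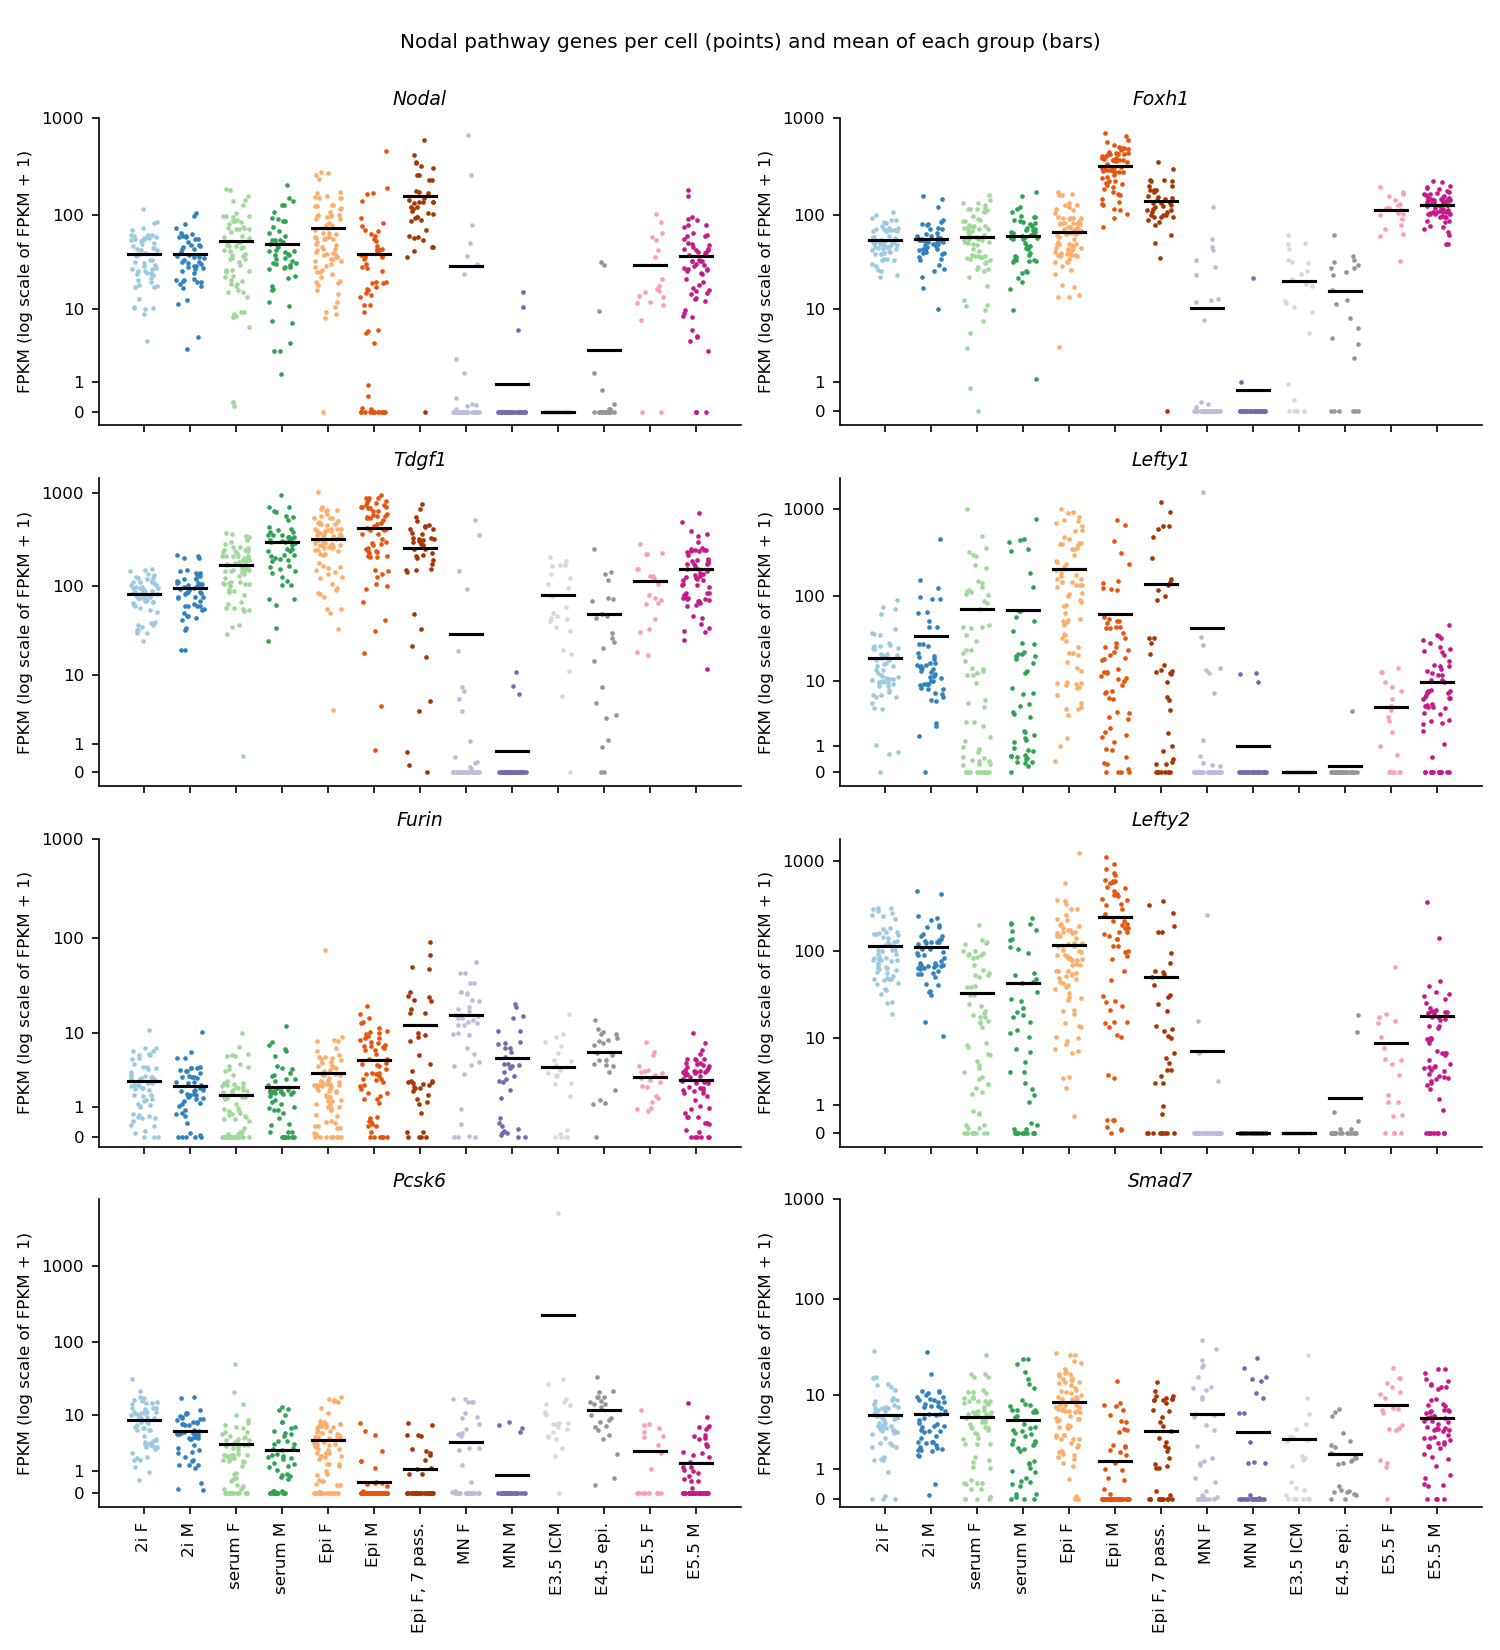
FPKM of the 8 genes in every cell (points, vertical axis on a log scale of FPKM + 1) by group (F, female; M, male; MN, motor neuron culture), with a black bar at each group's mean. Nodal, Lefty1 and Lefty2 lie at 0 in all E3.5 cells and in most E4.5 cells, while Tdgf1 and Foxh1 are present at both stages. A few E4.5 cells hold Nodal (up to 32.2 FPKM) or Lefty2 (up to 18.6 FPKM). Foxh1 is highest in male Epi cells (mean 320.1 FPKM).

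Tdgf1 (ENSMUSG00000032494, chr9:110939603-110946158, minus strand) had the highest mean of the 8 in every serum and Epi culture, at E4.5 and in male E5.5 cells. It averaged 81.7 ± 31.4 and 93.4 ± 46.1 FPKM in female and male 2i cells, 167.8 ± 88.4 and 300.9 ± 193.2 in serum, and 322.6 ± 186.1, 258.2 ± 185.6 and 421.6 ± 269.2 in the female, 7-passage and male Epi cultures. Unlike Nodal it was already present at E3.5: the lowest, median and highest values were 0, 50.5 and 203 FPKM at E3.5, 0, 26.6 and 249.7 at E4.5, and 11.8, 125.8 and 611 in male E5.5 cells. Cells with Cdx2 held less of it on average, although they included the highest E4.5 cell. Tdgf1 averaged 116.6 FPKM in the 13 E3.5 cells under 10 FPKM of Cdx2 and 30.6 in the other 10, and at E4.5 79.7 in 7 cells and 35.8 in 16. Motor neuron cells were low, with medians of 0 in both lines and means of 29.6 (female) and 0.70 FPKM (male). The female mean was 104.2 FPKM in the 11 cells with Pou5f1 and 0.26 in the other 28. Part of the Tdgf1 signal could not be assigned with certainty, because the pseudogene Tdgf1-ps1 is 98.8% identical to the Tdgf1 coding sequence over 512 aligned bases and shares 50.5% of its 50-base windows exactly.

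The convertases were low. Furin (ENSMUSG00000030530, chr7:80388585-80405436, minus strand) cleaves many precursor proteins and averaged between 1.66 FPKM (female serum cells) and 15.997 (female motor neuron culture). It averaged 5.19 ± 5.51 FPKM in the male motor neuron culture, 6.08 ± 3.70 at E4.5 and 12.5 ± 19.7 in the 7-passage Epi culture, where the median was 2.63. Pcsk6 (PACE4; ENSMUSG00000030513, chr7:65861734-66050386, plus strand) had medians of 7.53 FPKM at E3.5 and 9.74 at E4.5, beside 7.73 in female and 5.15 in male 2i cells. Its E3.5 mean of 225.6 FPKM rested on a single cell at 4974 FPKM, whose FPKM sum was over 10 times the stage median. Pcsk6 reached 1 FPKM in 58 of 60 and 48 of 51 2i cells, in 41 of 68 and 30 of 52 serum cells, and in 7 of 63 male Epi cells (11.1%, 4.59 to 21.6%). Furin overlaps 1 annotated antisense gene and Pcsk6 overlaps 2 genes, 1 of them antisense, and the strand of the counting is not given in the sources used here.

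Foxh1 (ENSMUSG00000033837, chr15:76668225-76669948, minus strand) was nearly level across the 2i and serum cultures. It averaged 55.1 ± 19.3, 56.9 ± 27.8, 59.9 ± 38.1 and 60.8 ± 34.5 FPKM there and 66.4 ± 36.7 in the first female Epi culture. It stood higher in the other Epi cultures, at 139.9 ± 67.4 (7 passages) and 320.1 ± 141.4 FPKM (male). The male Epi cells ran from 75.4 through a median of 307.5 to 686 FPKM, so that even the lowest of them exceeded the median of every 2i and serum culture. E5.5 cells were also uniform, at 113.2 ± 40.97 (female) and 127.001 ± 38.7 FPKM (male), and the lowest cell held 33.2 FPKM. Blastocyst cells held 20.3 ± 18.8 (E3.5) and 16.02 ± 16.5 FPKM (E4.5). When the 13 groups were ordered by mean, Foxh1 was the only member with any adjacent pair further apart than the larger of their SDs over cells (3 of 12 pairs). These were male above 7-passage Epi, female E5.5 above first female Epi, and female 2i above E3.5. The E5.5 and E3.5 groups in these pairs were normalized separately from the cultures beside them. For the other 7 genes no adjacent pair in the order differed beyond that spread, although the ends of each order were far apart.

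Lefty1 (ENSMUSG00000038793, chr1:180935022-180938400) and Lefty2 (ENSMUSG00000066652, chr1:180893108-180899103) are similar copies on the plus strand of chromosome 1, so how well reads can tell them apart bears on every value below. Their coding sequences in GENCODE vM21 (GRCm38) are 92.3% identical over 1105 aligned bases, and 26.6% of the 50-base windows of Lefty1 occur exactly in Lefty2. The lines printed here show the 150 coding bases, across an exon junction, where the copies differ most, at 25 positions, with the differing bases in capitals. They lie at chr1:180935234-180936570 and chr1:180893308-180894158. A read inside an exactly shared window fits both genes equally, and the sources used here do not say how such reads were assigned.

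Lefty1, most different stretch: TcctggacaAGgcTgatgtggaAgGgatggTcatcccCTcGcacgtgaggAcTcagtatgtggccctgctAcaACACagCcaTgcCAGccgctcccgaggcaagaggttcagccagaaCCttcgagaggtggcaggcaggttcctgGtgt
Lefty2, most different stretch: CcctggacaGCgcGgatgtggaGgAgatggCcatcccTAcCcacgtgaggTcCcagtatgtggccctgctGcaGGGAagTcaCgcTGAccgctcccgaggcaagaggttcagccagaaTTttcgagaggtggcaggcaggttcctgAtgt

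The balance between the inhibitors differed between cultures. In 2i cells Lefty2 was the main form: Lefty1 averaged 18.8 ± 17.96 and 34.5 ± 67.8 FPKM and Lefty2 112.2 ± 74.8 and 111.3 ± 87.8 (female and male), and Lefty2 exceeded Lefty1 in 60 of 60 and 50 of 51 cells. In serum cells Lefty1 averaged 71.4 ± 151.03 and 70.1 ± 154.9 FPKM and Lefty2 33.4 ± 43.1 and 43.5 ± 65.97. Both were patchy there, with Lefty1 medians of 11.8 and 6.77 FPKM and highest cells at 991 and 775 FPKM. The Lefty2 medians, at 15.4 and 10.9 FPKM, were above those of Lefty1, unlike the means. The 7 highest of 68 female and 5 highest of 52 male serum cells held 61.3% and 66.7% of the summed Lefty1, and the 6 highest of 60 female 2i cells 33.5%. Lefty1 exceeded Lefty2 in 34 of 68 female and 32 of 52 male serum cells, and Lefty2 exceeded Lefty1 in 28 and 19.

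The 3 Epi cultures did not share 1 balance. Lefty1 was the higher on average in the first female culture (205.9 ± 251.4 against 117.2 ± 161.3 FPKM for Lefty2) and in the 7-passage culture (139.7 ± 277.8 against 51.2 ± 89.1), and Lefty2 in the male culture (240.8 ± 261.8 against 62.4 ± 140.5). Lefty2 exceeded Lefty1 in 49 of 63 male Epi cells. Within the male culture, split by Sox17, an endoderm regulator, after its values were seen, Lefty2 was above Lefty1 in 46 of 53 cells under 10 FPKM of Sox17 and in 3 of the other 10. At E5.5 both were low and the mean of Lefty2 was 1.98 times (female) and 1.92 times (male) that of Lefty1, with 4.48 ± 4.86 and 8.86 ± 15.1 FPKM in females and 9.59 ± 10.7 and 18.4 ± 46.6 in males. Neither gene was listed above 0 in any E3.5 cell, and at E4.5 Lefty1 reached 1 FPKM in 1 cell and Lefty2 in 2 of 23.

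**Figure D2:**
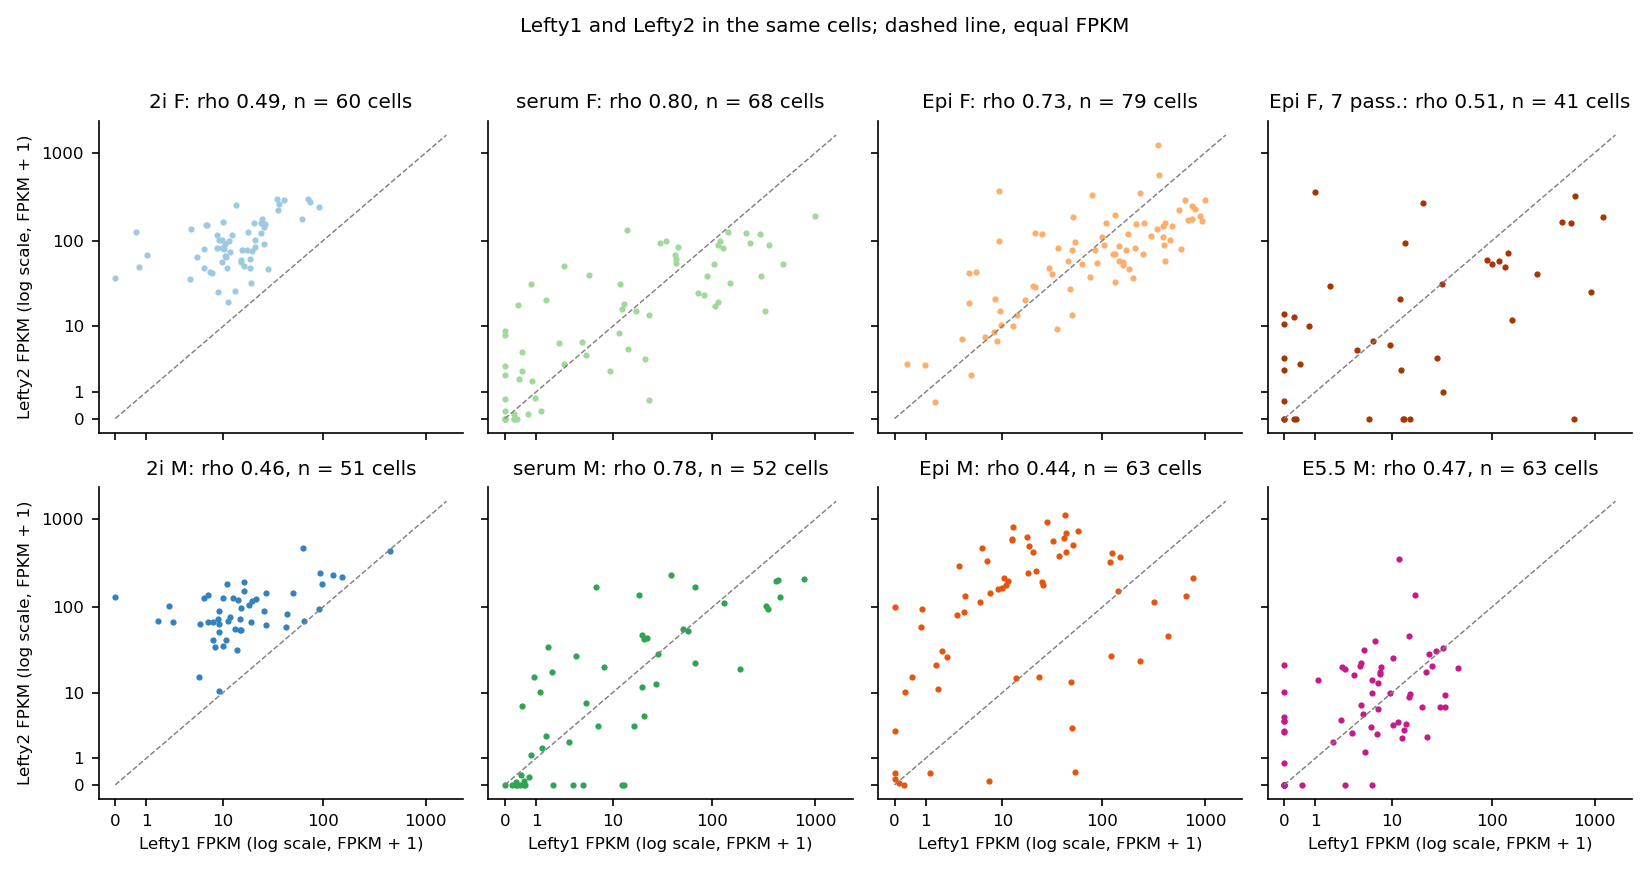
Lefty2 against Lefty1 FPKM in the same cells (both axes on a log scale of FPKM + 1) for 8 groups, with Spearman's rho over the cells of each group in the panel titles and a dashed line at equal FPKM. All 60 female 2i cells lie above the line, serum cells vary together in rank (rho 0.80 and 0.78) with their highest Lefty1 cells below it, and most male Epi cells lie above it with 14 of 63 below.

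Smad7, which blocks the receptors from the inside, was low everywhere. It averaged 5.94 ± 4.75 and 6.10 ± 4.75 FPKM in female and male 2i cells, 5.70 ± 4.99 and 5.17 ± 6.03 in serum, and 7.73 ± 5.47 and 5.57 ± 4.75 in female and male E5.5 cells. The Epi cultures spanned its whole range of means, from 8.53 ± 6.59 FPKM in the first female culture through 3.87 ± 4.11 in the 7-passage culture to 1.44 ± 2.76 in the male one, where 39 of 63 cells were at 0.

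Serum against 2i tests the step out of the ground state. Limma was fitted to log2(mean FPKM + 1) of the 8 cultures, over the 15504 genes averaging 1 FPKM or higher. A call needed both a p under 0.05 after Benjamini-Hochberg adjustment over all of them and a 2-fold difference. No member was called, against 0.0193% of all genes tested (3 genes), and none had an unadjusted p under 0.05, which 1549 genes did. The estimates were largest for Lefty2 (-1.53 ± 0.91 SE, limma adjusted p = 0.703), Lefty1 (1.43 ± 1.37, 0.876) and Tdgf1 (1.35 ± 1.20, 0.859), and each had the same sign in both lines. Missing the threshold does not show that levels were alike. Pcsk6 was at -0.96 ± 0.72 (0.792). The choice of average mattered for the Leftys. With the mean over cells of log2(FPKM + 1), which weighs the few very high cells less, Lefty2 was called (-3.04, limma adjusted p = 0.0055), 1 of 224 genes called under that setting, and Lefty1 changed sign to -0.46. The range of the limma adjusted p for Lefty2 over all alternatives was 0.0055 to 1.

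Epi against serum tests the change from serum and LIF to Activin A and FGF2. No member was called, against 0.0387% of genes tested (6 genes), and none had an unadjusted p under 0.05, which 1000 genes did. Lefty2 came nearest, with a log2 change of 2.11 ± 0.91 (limma adjusted p = 0.727, unadjusted p = 0.0571), positive in both lines at 1.78 and 2.44. Foxh1 was at 0.15 in the female line and 2.38 in the male line (1.26 ± 1.01, limma adjusted p = 0.766). With the first female Epi culture the lines went opposite ways for 4 members, and these differences were not tested. Lefty1 was at 1.51 in the female and -0.17 in the male line, Nodal at 0.45 and -0.34, Pcsk6 at 0.19 and -1.38, and Smad7 at 0.51 and -1.34. In the 7-passage female culture Pcsk6 (1.09 FPKM) and Smad7 (3.87) averaged less than in female serum cells (3.42 and 5.70), as in the male line. Nodal (155.8 FPKM) and Lefty1 (139.7) averaged more than in female serum cells (53.9 and 71.4), as in the first female culture.

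**Figure D3:**
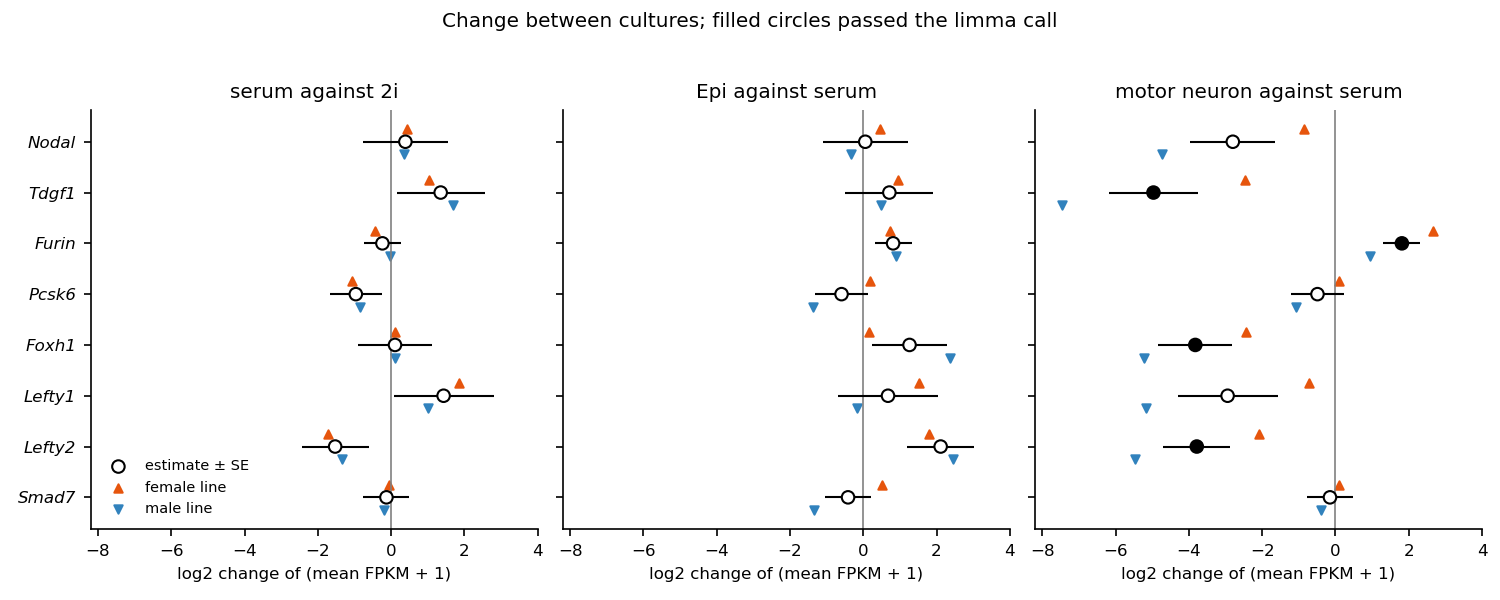
Log2 change of mean FPKM + 1 in the 3 tested comparisons (circles with SE from limma on 8 cultures, filled where called) and within the female (upward triangles) and male line (downward triangles). Only the motor neuron comparison has called members, Tdgf1, Foxh1 and Lefty2 below 0 and Furin above it, and the male line lies lower than the female in each of those 4.

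Motor neuron against serum cultures compares differentiated with pluripotent cells, and here the co-receptor, the SMAD partner and an inhibitor fell. Of the 8 genes 4 were called, against 32.8% of all genes tested: 3 fell, against 2.70% of all genes, and 1 rose, against 30.1%. Tdgf1 fell from 167.8 and 300.9 FPKM in female and male serum cells to 29.6 and 0.70, a log2 change of -4.97 ± 1.20 (SE, limma adjusted p = 0.0223). Foxh1 fell from 59.9 and 60.8 to 10.3 and 0.66 FPKM (-3.83 ± 1.01, limma adjusted p = 0.0293). The female Foxh1 mean was 28.4 FPKM in the cells with Pou5f1 and 3.16 in the others. Lefty2 fell from 33.4 and 43.5 to 7.04 FPKM and to 0 in every male cell (-3.79 ± 0.91, limma adjusted p = 0.0220). Furin rose from 1.66 and 2.198 to 15.997 and 5.19 FPKM (1.81 ± 0.50, limma adjusted p = 0.0341). Nodal (-2.80 ± 1.16, 0.103), Lefty1 (-2.94 ± 1.37, 0.137), Pcsk6 and Smad7 did not pass.

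The members' median was -2.87 beside 0.71 for all genes tested. That shift of all genes was -0.01 after scaling the cultures to 1 upper quartile, and 91.8% of all calls were higher before and 56.3% after it. Furin then stood at 1.14 (limma adjusted p = 0.170), while Tdgf1, Foxh1 and Lefty2 were still called. The log2 changes of Nodal and Lefty1 were -4.47 and -4.73 without the 11 female motor neuron cells with Pou5f1. That threshold was chosen after seeing the data, and those cells held the higher averages, so calls are not given. In them and in the other 28 female cells Nodal averaged 98.8 and 2.02 FPKM, and Lefty1 144.8 and 2.68. No member was called when any 1 of the 4 2i or serum cultures was left out, when only the 4 cultures compared were fitted, or with no filter on low values.

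The other genes of the pathway were taken from a list of 37, of which 34 were tested. None was called in serum against 2i or in Epi against serum. In motor neuron against serum cultures 11 of 34 rose, near the 30.1% of all genes that did, and 1 of 34 fell, near the 2.70%. Of 5 receptor genes tested 4 rose. Among them were the activin type II receptor Acvr2a (2.26 ± 0.52, limma adjusted p = 0.0189) and the TGF-beta receptors Tgfbr1 (type I, 3.10 ± 0.52, 0.00707) and Tgfbr2 (type II, 3.39 ± 0.33, 0.00243). Among SMADs and their regulators 5 of 11 rose. The activin inhibitor Fst rose by 4.73 ± 1.09 (limma adjusted p = 0.0192) and Foxa2, an endoderm and floor plate factor, by 5.58 ± 0.98 (0.00822), and Otx2, a transcription factor of the early epiblast and head, fell by 3.91 (0.0142). Like Furin, these genes rose in a comparison whose median gene was at 0.71. The cultures also held endoderm transcripts, with Sox17 means of 89.5 (female) and 346 FPKM (male), and their part in these changes was not tested.

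Activin-grown Epi cells were set against embryo cells, with 1 sample an arm, no test and tables normalized separately, so the ratios are descriptions. Against E4.5 cells every Epi culture was higher in Nodal, Tdgf1, Foxh1, Lefty1 and Lefty2. The count past 2-fold in log2(mean FPKM + 1) was 6 of 8 for the male culture (57.2% of all genes were past it), 6 of 8 for the 7-passage culture (60.4%) and 7 of 8 for the first female culture (53.6%). Nodal stood at 3.25 FPKM in E4.5 cells, against 39.6, 155.8 and 74.2 FPKM. The Nodal log2 ratios were 3.26, 5.21 and 4.15, beside medians over all genes of 0.86, 0.95 and 0.89. Lefty1 (5.76, 6.91 and 7.46) and Lefty2 (6.66, 4.45 and 5.63) had ratios past those of Nodal in the male and first female cultures, while in the 7-passage culture Nodal lay between them. Pcsk6 (-3.13, -2.59 and -1.31) had the lowest. Without the E4.5 cells at 10 FPKM or more of Cdx2, 7 E4.5 cells remained. The Nodal ratios were then 1.84, 3.79 and 2.73, and those of Foxh1 were 3.28, 2.09 and 1.03.

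Against E5.5 cells of the same sex the cultures were closer, and Lefty1 and Lefty2 had the highest ratios of the 8 in all 3 cultures. The male culture had 5 of 8 members past 2-fold (26.5% of all genes), the 7-passage culture 5 of 8 (27.1%) and the first female culture 4 of 8 (30.5%). Lefty1 was at 62.4 FPKM in male Epi against 9.59 in male E5.5 cells (log2 ratio 2.58), and at 139.7 and 205.9 in the female Epi cultures against 4.48 (4.68 and 5.24). Lefty2 had log2 ratios of 3.64, 2.404 and 3.58 in the same order and Tdgf1 of 1.46, 1.20 and 1.52. The ligand differed between cultures: Nodal was at 39.6 against 37.6 FPKM in males (log2 ratio 0.07), and at 155.8 and 74.2 against 30.4 in females (2.32 and 1.26). Foxh1 was higher only in the male culture past 2-fold (1.33, against 0.30 and -0.76), and Smad7 was lower past 2-fold only there (-1.43, against -0.84 and 0.13). The differences between cultures were not tested. Without the E5.5 cells at 1000 FPKM or more of Apoa1, a visceral endoderm transcript, 7 female and 54 male E5.5 cells remained. Smad7 was then also past 2-fold lower in the 7-passage culture (-1.12).

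**Figure D4:**
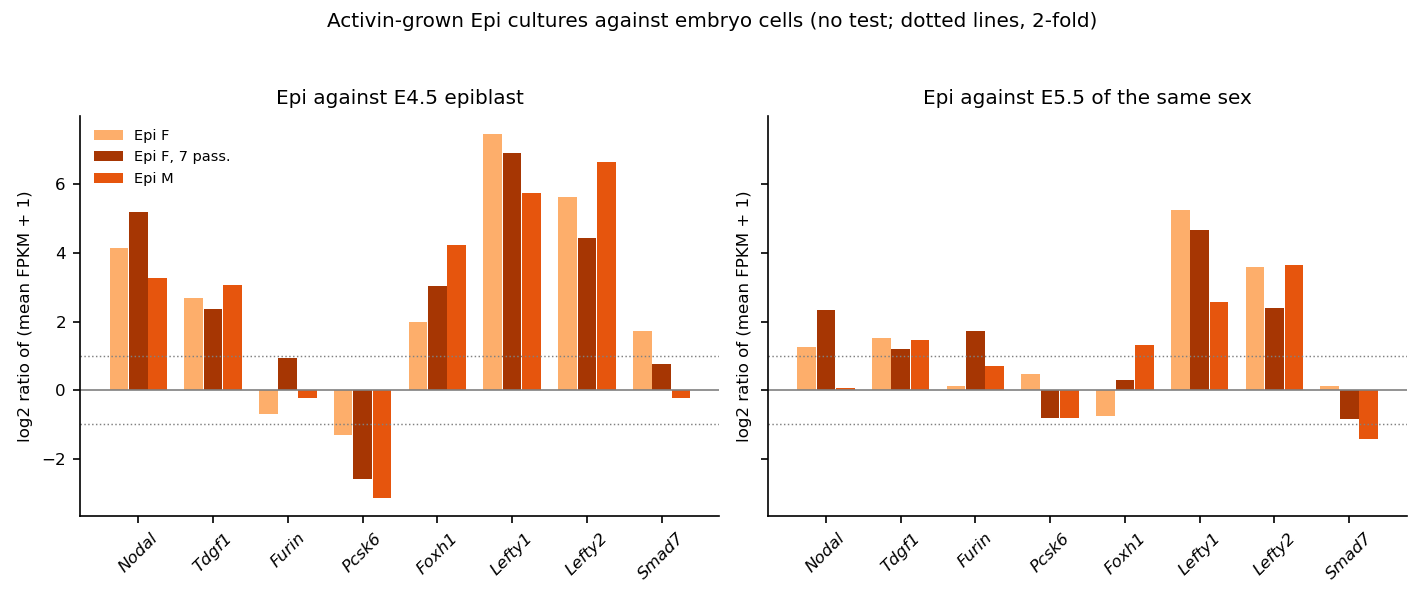
Log2 ratios of mean FPKM + 1 of the 3 Epi cultures against E4.5 epiblast cells (left) and against E5.5 cells of the same sex (right), with dotted lines at 2-fold. Lefty1, Lefty2 and Tdgf1 are past 2-fold in all 6 comparisons, and Nodal in 5 of them, the exception being male Epi against male E5.5.

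Of the 36 other pathway genes found in the tables, 12 were past 2-fold higher and 1 lower in male Epi against male E5.5 cells, where 26.5% of all genes were past it in either direction. The largest ratios were those of the node and organizer gene Lhx1 (184.9 against 6.82 FPKM, 4.57), the secreted Nodal inhibitor Cer1 (190.3 against 11.9, 3.89) and the second Nodal co-receptor Cfc1 (97.2 against 9.96, 3.16). The lowest among genes at 5 FPKM or more were Bmp4 (-0.64), Skil (-0.63) and Acvr2b (-0.28). In the first female Epi culture against female E5.5 cells 3 were higher and 12 lower past 2-fold (30.5% of all genes in either direction), and in the 7-passage culture 10 were higher and 3 lower (27.1%).

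The E4.5 and E3.5 cells came from 1 table. Of the 8 genes 3 were past 2-fold, against 26.7% of all genes. Nodal and Lefty2 averaged 3.25 ± 9.09 and 1.39 ± 4.52 FPKM at E4.5 and were listed at 0 in every E3.5 cell, so no fold is given. Pcsk6 was lower at E4.5 (log2 ratio -4.17), which turned to 0.22 without the single E3.5 cell at 4974 FPKM. Foxh1, Furin, Tdgf1 and Smad7 lay within 2-fold. Within each stage levels also differed with Cdx2: Foxh1 averaged 28.1 FPKM in the 13 E3.5 cells under 10 FPKM of Cdx2 and 10.1 in the other 10, and 31.99 and 9.04 in the 7 and 16 E4.5 cells. Furin went the other way, at 2.00 and 6.81 FPKM at E3.5 and 4.20 and 6.90 at E4.5. Of the other pathway genes at 5 FPKM or more in the higher group, over all cells of both stages, Eomes (0.85), Acvr2b (0.67) and Drap1 (0.51) had the highest ratios and Gsc (-1.64), Bmp4 (-0.69) and Cfc1 (-0.32) the lowest.

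**Figure D5:**
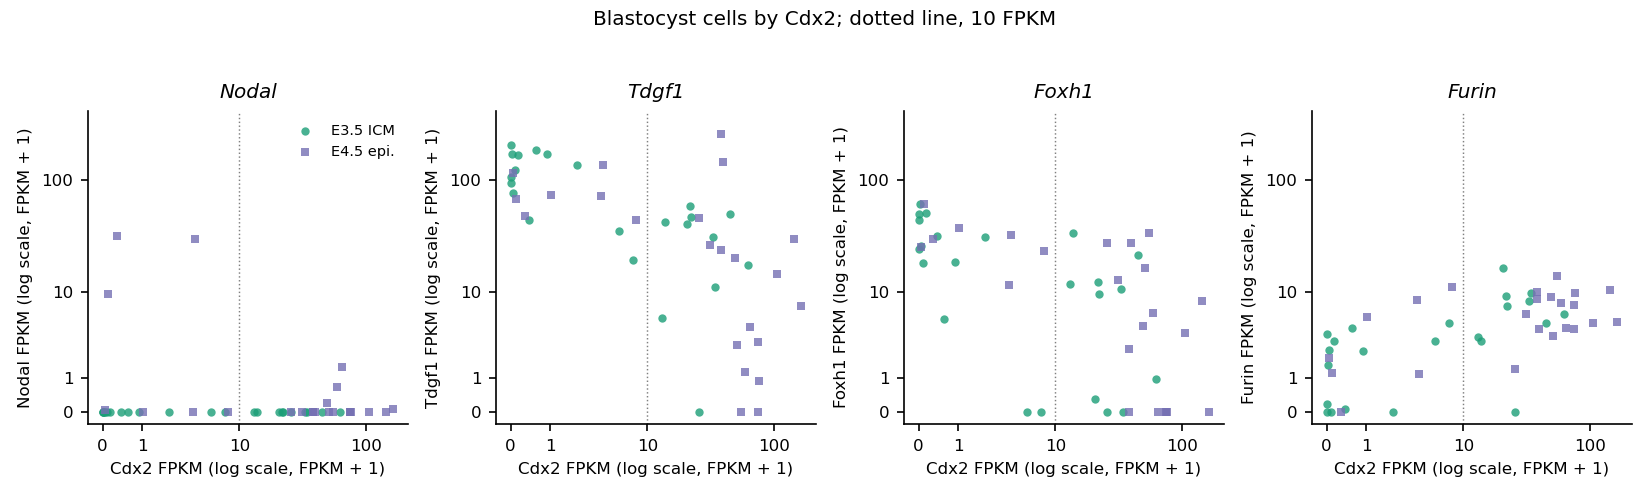
FPKM of Nodal, Tdgf1, Foxh1 and Furin against Cdx2 in the 23 E3.5 (circles) and 23 E4.5 cells (squares), axes on a log scale of FPKM + 1, with a dotted line at 10 FPKM of Cdx2. Nodal lies at 0 in all E3.5 cells. On average Tdgf1 and Foxh1 are higher on the left and Furin on the right at both stages, though the highest E4.5 cell for Tdgf1 (249.7 FPKM) lies on the right.

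Across the cells of 1 culture Lefty1 with Lefty2 ranked highest of the 28 pairs of members in the 2i, serum and first female Epi cultures, though not in the male Epi culture or at E5.5. Spearman's rho was 0.49 and 0.46 in female and male 2i cells, 0.80 and 0.78 in serum, 0.73 and 0.44 in the first female and male Epi cultures, and 0.36 and 0.47 in female and male E5.5 cells. These are descriptions over cells that share a culture and normalization, and over genes that share coding sequence. Over the 6 stem cell and Epi cultures, among 9058 genes, the gene most like either Lefty was the other (mean rho 0.62). Tmem63a, at chr1:180942344-180975112 on the same strand, was also among the 5 genes most like Lefty1 (mean rho 0.31, range 0.07 to 0.60), and Pcolce2, which aids procollagen processing, was among the 5 most like Lefty2 (0.35, 0.27 to 0.47).

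How closely Nodal followed its pathway partners differed between groups. Over the 6 stem cell and Epi cultures the genes most like Nodal were Pdia3 (mean rho 0.32), Cd81 (0.31) and Lefty1 (0.31). Nodal with Lefty1 reached 0.58 in male Epi cells, 0.50 and 0.32 in female and male E5.5 cells, and was -0.05 in the 7-passage culture. Nodal with Tdgf1 was 0.69 and 0.62 in female and male E5.5 cells, 0.40 and 0.31 in 2i cells, and between -0.30 and 0.14 in the serum and Epi cultures. Tdgf1 with Lefty2 was 0.62 in male Epi and 0.56 in male E5.5 cells and 0.07 in the first female Epi culture. The gene most like Tdgf1 was its pseudogene Tdgf1-ps1 (mean rho 0.73, range 0.47 to 0.91), which averaged between 5.70 and 35.3 FPKM and whose reads may be those of Tdgf1. Correlations in sparse single-cell values are given as descriptions only.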

How the data were processed

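Per the labels' protocols, cDNA of single cells was made by SMART-seq2 and tagmented with Tn5. The authors deposited FPKM values per gene and cell in 4 tables of 43628 Ensembl IDs. The submitters' processing notes name STAR 2.4.1, Cufflinks, Cuffnorm 2.2.1 and mm10, with no role or order. No counts were used, so depth is unknown. FPKM fixes levels per length, but the tables were normalized separately. Of the IDs, 42462 matched GENCODE vM21 (GRCm38), which gave names and positions. The 8 genes and the lists were chosen with earlier results of these data known.

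FPKM were averaged over the cells of a culture. Limma 3.58.1 in R 4.3.3 (trend on, 4 residual degrees of freedom, pseudocount 1) was fitted to 8 cultures, after a test on simulated data. P-values measure the spread between a female and a male culture. The labels give the same 2 lines in each state, and same-line deviations correlated by 0.06 to 0.16. Spearman's rho and exact Clopper-Pearson intervals were computed with pandas 2.3.3 and scipy 1.17.1. Named pathway genes were those called (at most the 6 largest a comparison) or, without a test, the 3 largest ratios each way at 5 FPKM or more. Alternatives changed the pseudocount, filter, average, scaling, line block and samples. Cdx2, Apoa1, Sox17 and Pou5f1 thresholds, and leaving out an E3.5 cell, were chosen after seeing the data. Some matches to the likeness rule and 1 sequence are not reported here.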

Additional observations from a re-analysis of the deposited data

Results flagged for a closer look

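Within some comparisons the female and male lines, with 1 culture each per state in the fit, moved in opposite directions, and these differences were not tested. In Epi against serum the male minus female difference in log2 change was -1.85 for Smad7 (female 0.51, male -1.34), -1.57 for Pcsk6 (0.19 and -1.38), -1.68 for Lefty1 (1.51 and -0.17) and -0.80 for Nodal (0.45 and -0.34). In motor neuron against serum it was -1.19 for Pcsk6 (0.10 and -1.09) and -0.49 for Smad7 (0.10 and -0.40). Line and sex cannot be told apart here. The 7-passage female Epi culture is not part of these values. Against female serum cells its means of Smad7 and Pcsk6 were lower, as in the male line. Those of Nodal and Lefty1 were higher, as in the first female culture.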

How the results depend on the processing

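The 4 calls in motor neuron against serum became 0 with no filter on low values and 0 when only the 4 cultures compared were fitted. Leaving out each culture in turn gave 0 to 5, and 0 without any 1 of the 2i or serum cultures; a lone culture was assumed to vary like the others. With the line as replicate block the count stayed at 4, and at 0 in the other comparisons. In serum against 2i 1 member was called on the mean of log2 values. Members past 2-fold at E4.5 against E3.5 went from 3 to 0 with medians over cells. The cause was not tested.

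Of 466 alternative values of single members in the fits 13 reversed, none of them called. In serum against 2i these were Furin (0.033) and Smad7 (0.10) in the higher run of title numbers, and Foxh1 (-0.13) and Lefty1 (-0.46) on the mean of log2 values. In Epi against serum Nodal was -0.49 on the mean of log2 values, -0.11 with upper-quartile scaling and -0.016 without cells with Sox17. With each culture left out in turn Nodal ran from -0.39 to 0.50, Lefty1 from -0.18 to 1.53, Pcsk6 from -1.50 to 0.32 and Smad7 from -1.40 to 0.57. In motor neuron against serum Pcsk6 ran from -1.21 to 0.23 and Smad7 from -0.46 to 0.16. Of the untested ratios 3 reversed: Pcsk6 at E4.5 against E3.5 (0.33 by medians, 0.22 without the E3.5 cell) and Furin in the 7-passage Epi culture against female E5.5 (-0.077 by medians).

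Over all genes, calls in serum against 2i (3) were 224 on the mean of log2 values, 27 with no filter, 12 with upper-quartile scaling and 0 with pseudocount 0.1 or the block. In Epi against serum (6) they were 848 when the 7-passage culture replaced the other female Epi culture, 2 with the block and 0 to 337 with each culture left out. In motor neuron against serum (5088) they were 3137 with each cell rescaled, 2876 with only the 4 cultures compared and 1647 without the female serum culture.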

Other observations

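Over the 8 cultures, the genes whose mean level followed Nodal most closely among 10950 were Ncl (Pearson's r 0.99, no test), Rpl35a (0.98) and Mir363 (0.98). For Tdgf1 they were Tfap2c (0.98), Hmga1b (0.98) and 1810032O08Rik (0.98). For Lefty2 they were Rpl37a (0.99), Slc1a5 (0.99) and Pif1 (0.98), and for Lefty1 Gm13343 (0.96), Mir5128 (0.96) and Tsga10ip (0.95). Several of these are ribosomal or short RNA genes, and 8 cultures over 4 states limit what such an order can show.

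Cultures could be divided where title numbers fell into separate runs, whose meaning the labels do not give. Lefty1 with Lefty2 had a rho of 0.33 and 0.64 in the lower and higher run of female 2i cells, 0.56 and 0.32 in male 2i cells, 0.70 and 0.78 in male serum cells, 0.61 and 0.80 in the first female and 0.50 and 0.47 in the male Epi culture, and 0.48 and -0.09 in the female motor neuron culture.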
